A study of Cavia porcellus with 35 samples.

Results

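The endothelium, pericyte and blood-brain barrier genes examined here were 40 genes chosen by symbol, of which 35 were listed, and passed the filter on low counts, in all 4 groups of animals, out of 10948 symbols common to the 4 groups. The list covers 6 roles. It names 3 tight junction genes, 13 endothelial surface and adhesion genes (10 listed), 5 endothelial receptors, 5 endothelial transcription factors (4 listed), 7 barrier transporters (6 listed) and 7 pericyte and mural genes. EMCN, ITM2A, LY6E, FOXQ1 and ABCG2 were not analysed here.

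The capillaries of the brain are lined by endothelial cells that are sealed to each other by tight junctions, carry dedicated transporters for glucose, amino acids, lactate and lipids, and pump many foreign compounds back into the blood. Pericytes sit on the outside of these capillaries and, through platelet-derived growth factor signalling, are needed to form and keep this barrier, while arterioles carry smooth muscle cells that contract. Glucocorticoids are known to tighten cultured brain endothelium, partly by raising their junction proteins.

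RNA was sequenced from punches of the right medial prefrontal cortex (PFC) of 35 guinea pigs at postnatal day 40, 1 library for each animal. F1 animals were born to mothers given courses of betamethasone, a synthetic glucocorticoid (sGC), or saline (control) in late gestation, and F2 and F3 females descended from them through F1 and F2 males of each line mated with females from outside the experiment. There were 4 control and 4 sGC animals among each of the F1, F2 and F3 females, and 5 control and 6 sGC animals among the F1 males. The foetus itself was exposed only in F1, and no gene was altered in any animal. No 2 of the females of a group came from the same litter. Bulk tissue was used, so fewer vessel cells and less RNA for each vessel cell cannot be told apart.

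The female libraries held 12819964 to 19551079 reads assigned to genes and the male libraries 25697953 to 31763585, and the lowest count of any member in any animal was 10. Levels are given as CPM, the counts scaled to the TMM-adjusted size of each library, and sGC and control animals were compared in each group by edgeR's quasi-likelihood test with the false discovery rate (FDR) taken over all genes tested. Log2 fold changes are sGC over control and carry their standard error (SE). One protocol field names the paraventricular nucleus in place of the PFC. Of its genes, AVP was at 0.351 to 1.52 CPM, OXT at 0.831 to 4.04 CPM and SIM1 at 2.78 to 14.9 CPM over all animals. The neuronal gene SNAP25 lay at 2268 to 5369 CPM, and SLC17A7, the vesicular glutamate transporter of cortical neurons, ranged widely, from 171 to 3575 CPM. The defining vessel genes were present in every animal, CLDN5 at 66.4 CPM or more and PECAM1 at 21.8 CPM or more.

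Control levels of 33 members differed by 1.10 to 1.65 times between the highest and the lowest of the 4 groups. ESAM and ANPEP were the exceptions. The endothelial adhesion gene ESAM was listed at 19.1 ± 0.804 CPM (SD, n = 4) in F1 control females and at 14.4 ± 1.21 CPM (n = 4) in F3 control females, but at 971 ± 106 CPM (n = 4) in F2 control females and 1106 ± 65.3 CPM (n = 5) in F1 control males. VSIG2, which is no member and was looked at after these values were seen, was listed at 1002 ± 250.3 CPM in F1 and 569.6 ± 95.6 CPM in F3 control females, the groups with little ESAM, and had no row in the other 2 groups. ANPEP, a membrane aminopeptidase of pericytes, stood at 59.4 ± 4.83 CPM in F1 control females and between 6.13 and 6.63 CPM in the other control groups. Over all 10948 common symbols, 166, or 1.52%, differed by more than 10 times between groups. Counts of ESAM are therefore not taken as one gene's level across groups, and summed levels are given without ESAM and ANPEP.

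**Figure D1:**
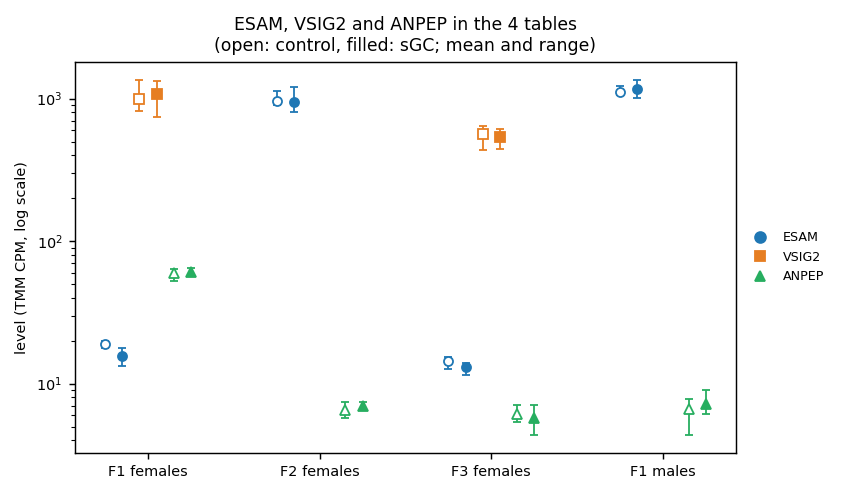
Level of ESAM, VSIG2 and ANPEP (TMM CPM, log axis) in each of the 4 groups of animals. Symbols are the mean of the control (open) or sGC (filled) animals and bars run from the lowest to the highest animal. ESAM lies near 15 CPM in F1 and F3 females and near 1000 CPM in F2 females and F1 males, and VSIG2 is high where ESAM is low.

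In F1 females, 5 of the 35 members were down-regulated in sGC animals and 0 were up-regulated at an FDR under 0.05. That is 14.3% of the members, where 16.5% of all 11268 genes were called (7.33% lower, 9.21% higher), so the share called was near the background. The down-regulated members were the lactate and monocarboxylate transporter SLC16A1, the tight junction protein OCLN, the transforming growth factor co-receptor ENG, the adherens junction cadherin CDH5 and the endothelial guidance receptor ROBO4. Fold changes were below 0 for 30 of the 35 members, against 54.5% of all genes, and their median was -0.20 against -0.03 over all genes. With other scalings, 29 to 32 members were below 0. The likelihood ratio test called 6 members, the same 5 and PDGFRB, while DESeq2 and upper-quartile scaling each called 7, these 6 and CLDN5. The 16.5% of all genes belongs to the main test, so these counts are not set against a background.

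Among the tight junction genes, OCLN, an integral strand protein, stood at 10.7, 13.1, 10.8 and 9.79 CPM in the controls and at 7.55, 6.27, 7.96 and 7.91 CPM in the sGC animals. All 4 sGC animals lay below all 4 controls (log2 fold change -0.58, SE 0.13, FDR = 0.0201). CLDN5, the main claudin of brain endothelium, was at 105, 114, 120.1 and 115 CPM in controls and 96.2, 87.5, 108 and 87.6 CPM in sGC animals. The groups overlapped through 1 sGC animal, and the difference missed the threshold in the quasi-likelihood test (-0.26, SE 0.08, FDR = 0.0550). CLDN5 passed with DESeq2 (FDR = 0.0362), with upper-quartile scaling (FDR = 0.0389) and without sGC 3 (FDR = 0.0230), and its FDR without any other single animal ran up to 0.171. The scaffold protein TJP1, which neurons and glia also make, gave -0.14 and did not pass (SE 0.07, FDR = 0.227).

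Of the 10 endothelial surface and adhesion genes, 3 were down-regulated. ENG was at 53.1, 49.7, 45.4 and 42.2 CPM in controls and 39.4, 32.6, 38.0 and 35.8 CPM in sGC animals, with no overlap (-0.38, SE 0.09, FDR = 0.0239). ROBO4 stood at 24.2, 27.05, 24.3 and 21.4 CPM in controls against 19.0, 14.2, 20.8 and 17.0 CPM, again with no overlap (-0.45, SE 0.12, FDR = 0.0395). CDH5 was at 32.1, 34.7, 31.1 and 27.6 CPM in controls and 24.7, 22.7, 27.8 and 23.9 CPM in sGC animals (-0.34, SE 0.09, FDR = 0.0345). For CDH5 the third sGC animal reached the lowest control, so these groups touched. PECAM1, the platelet and endothelial adhesion molecule, was at 38.8, 36.0, 39.4 and 35.3 CPM against 31.8, 30.5, 38.4 and 26.0 CPM and overlapped (-0.24, SE 0.11, FDR = 0.160). EGFL7, a secreted endothelial protein, was the only member of this role above 0 (0.21, SE 0.09, FDR = 0.124).

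The 5 endothelial receptors had the median fold change closest to 0 of all roles, -0.06. FLT1 and KDR, which bind vascular endothelial growth factor, had log2 fold changes of -0.11 (SE 0.10) and 0.01 (SE 0.19), and the angiopoietin receptor TEK and its relative TIE1 had -0.01 (SE 0.13) and -0.06 (SE 0.21). The smallest FDR among the receptors was 0.465. The 4 endothelial transcription factors were all below 0, from -0.14 (ERG) to -0.40 (SOX17), with no call and a smallest FDR of 0.110.

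Among the barrier transporters, SLC16A1 had the smallest p of all members. It was at 22.5, 33.5, 29.5 and 26.8 CPM in controls and at 18.9, 18.5, 18.9 and 19.1 CPM in sGC animals (-0.57, SE 0.11, FDR = 0.0141). The 4 sGC animals were close together and all lay below the controls. The glucose transporter SLC2A1 (-0.17, SE 0.06, FDR = 0.0936) and the large neutral amino acid transporter SLC7A5 (-0.21, SE 0.08, FDR = 0.0952) did not pass. The efflux pump ABCB1 had a fold change of 0.17 (SE 0.21, FDR = 0.599), and the lipid transporter MFSD2A one of -0.08 (SE 0.08, FDR = 0.538).

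Of the 7 pericyte and mural genes, the quasi-likelihood test called 0, while for 1 of them, PDGFRB, the p before adjustment was under 0.05. PDGFRB, the receptor that holds pericytes to the vessel, was at 50.8, 41.8, 44.6 and 48.3 CPM in controls and 38.6, 30.9, 41.1 and 38.5 CPM in sGC animals. These groups did not overlap, yet the FDR was 0.0586 (-0.32, SE 0.10). PDGFRB passed by the likelihood ratio test (FDR = 0.0415), DESeq2 (FDR = 0.0445) and upper-quartile scaling (FDR = 0.0452), and in none of the 8 omissions of an animal. RGS5, a regulator of G protein signalling found in pericytes, was at 125, 154, 151 and 141 CPM in controls and 156, 115, 143 and 126 CPM in sGC animals, with wide overlap (-0.08, SE 0.10, FDR = 0.617). TAGLN, an actin-binding protein of smooth muscle, varied most between animals, from 9.76 to 44.2 CPM in controls and from 6.58 to 34.2 CPM in sGC animals. The difference between the fold changes of PDGFRB and RGS5 was not tested. Over all members, 8 had sGC animals wholly below controls, where 11.2% of all genes did.

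The calls in F1 females depended on single animals for all genes but SLC16A1. SLC16A1 passed without any 1 of the 8 animals (FDR 0.00423 to 0.0498), OCLN passed in 6 of the 8 omissions, ENG in 5, CDH5 in 2 and ROBO4 in 1. The number of members called was 1 without control 3, 2 without control 2, sGC 1 or sGC 4, and 3 without control 1 or sGC 2. It was 4 without control 4 and 7 without sGC 3. Calls over all genes changed as well. They numbered 2115, 1227, 613 and 992 without controls 1 to 4, and 828, 1608, 1218 and 1109 without sGC 1 to 4. The number of members below 0 was between 27 and 32 in these omissions.

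Markers of other cell types also moved in F1 females. Summed over 7 neuronal markers (3 up-regulated, 0 down-regulated), sGC animals were at 9520 to 14120 CPM and controls at 6534 to 8537 CPM, with no overlap. Over the microglial markers (4 of 5 tested down-regulated), sGC animals were at 175 to 197 CPM and controls at 235 to 284 CPM, also with no overlap. Over 7 astrocyte markers (3 down-regulated), the ranges were 5667 to 6392 and 6085 to 6898 CPM. Striatal neuron markers (3 of 6 tested down-regulated) ran from 177 to 489 CPM in sGC animals and from 416 to 2115 CPM in controls. Of 6 oligodendrocyte markers tested, 0 were called, with a median log2 fold change of -0.72. Their sums ran from 3565 to 7243 CPM in sGC animals and from 4557 to 15487.5 CPM in controls. The part of these cell types in the result for the vessel genes was not tested. Without the 2 controls richest in striatal markers, chosen after seeing the data, 5 members were called. SLC16A1, OCLN, ENG and CDH5 were lower in sGC animals, while ABCB1 was higher (0.61, SE 0.13, FDR = 0.0273).

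**Figure D2:**
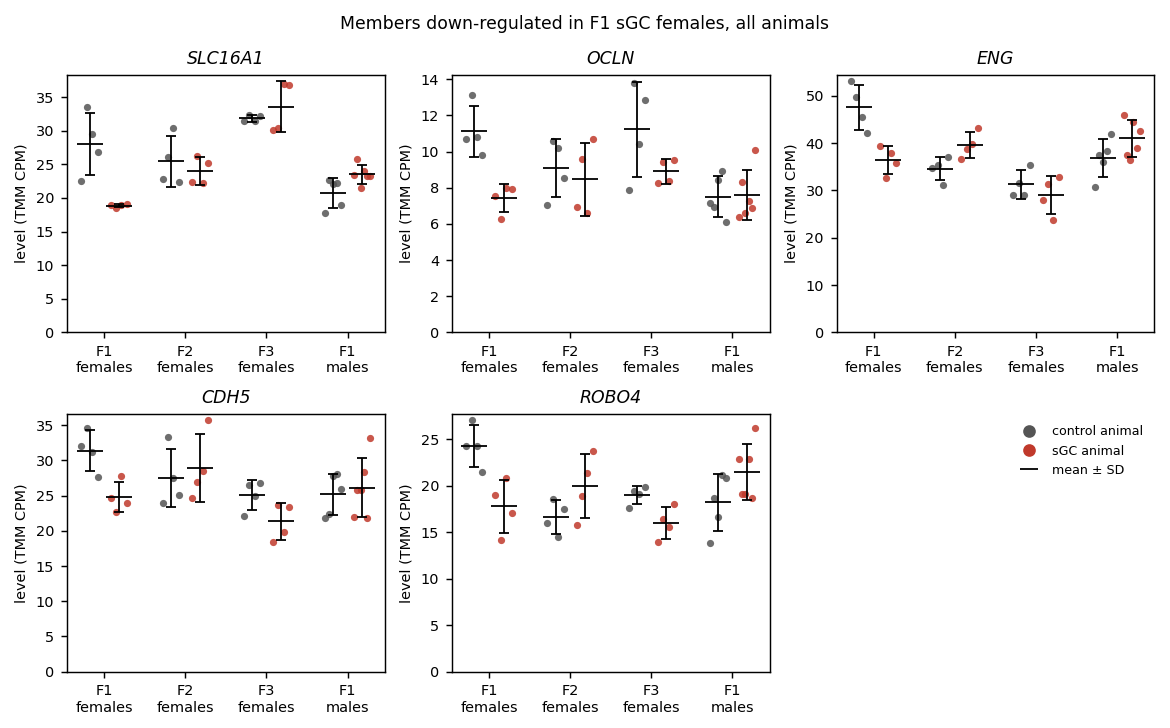
Level (TMM CPM) of the 5 members down-regulated in F1 sGC females, in every animal of the 4 groups. Points are animals (grey control, red sGC) and black bars are the mean ± SD. In F1 females the sGC animals lie below the controls for SLC16A1, OCLN, ENG and ROBO4 and touch them for CDH5, and in the other groups sGC and control animals overlap for all 5 genes.

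In F2 females, 0 of the 35 members were called, where 0.278% of all 11132 genes were. At an unadjusted p under 0.05 there were 4 members higher and 2 lower in sGC animals, where 8.72% and 7.35% of all genes were. By the likelihood ratio test and by DESeq2, 2 members were called, EGFL7 and MFSD2A. These tests called 534 and 473 of all genes. Fold changes were above 0 for 26 of the 35 members, against 52.1% of all genes, with a median of 0.07.

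EGFL7 had the smallest p in F2 females. It stood at 31.8, 30.5, 26.6 and 26.5 CPM in controls and 38.6, 32.3, 43.3 and 46.8 CPM in sGC animals (0.48, SE 0.11, FDR = 0.0731). MFSD2A, which carries omega fatty acids across the barrier as lysophospholipids, was at 38.0, 32.4, 30.5 and 32.5 CPM in controls and 39.1, 40.3, 49.0 and 51.7 CPM in sGC animals (0.43, SE 0.11, FDR = 0.0831). No sGC animal reached down to the controls in either gene, an order that 4.08% of all genes had. ENG and VWF, the von Willebrand clotting factor of endothelium, were the next endothelial members. ENG was at 34.8, 35.5, 31.2 and 37.0 CPM in controls and 36.6, 38.7, 39.9 and 43.2 CPM in sGC animals (0.19, SE 0.08, FDR = 0.261). VWF was at 107, 131, 130.3 and 111 CPM in controls and 119.6, 143, 139 and 149.96 CPM in sGC animals (0.20, SE 0.09, FDR = 0.303). Both overlapped between the groups.

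The contractile genes of arterioles lay on the other side. ACTA2, smooth muscle actin, was at 10.4, 14.8, 10.5 and 15.6 CPM in F2 controls and 6.95, 10.1, 8.33 and 10.4 CPM in sGC animals (-0.53, SE 0.18, FDR = 0.176). TAGLN was at 11.96, 24.7, 17.1 and 22.8 CPM in controls and 12.8, 14.98, 9.93 and 13.2 CPM in sGC animals (-0.59, SE 0.21, FDR = 0.20). The ranges overlapped for both genes. The summed meningeal fibroblast markers, cells that accompany large surface vessels, were at 29.7 to 52.6 CPM in F2 sGC animals and 43.1 to 66.5 CPM in controls, and their part was not tested. The pericyte genes were near 0 in F2 females. PDGFRB was at 34.7, 46.8, 42.3 and 40.4 CPM in controls and 32.6, 44.7, 38.1 and 50.2 CPM in sGC animals (0.01, SE 0.13, FDR = 0.984). RGS5 was at 127, 154, 133 and 117 CPM against 109.7, 129, 148 and 191 CPM (0.12, SE 0.15, FDR = 0.748).

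The defining endothelial genes were also level in F2 females. CLDN5 was at 96.1, 112, 99.6 and 97.7 CPM in controls and 95.7, 102, 108 and 122 CPM in sGC animals (0.07, SE 0.08, FDR = 0.713). PECAM1 was at 32.3, 33.5, 30.3 and 34.1 CPM against 27.3, 34.5, 34.0 and 38.5 CPM (0.04, SE 0.10, FDR = 0.876). The fourth sGC animal held the highest level for 27 of the 33 members other than ESAM and ANPEP. Without it, 20 of the 35 members were below 0 and the median turned to -0.03, so the excess above 0 rested on that animal. Of the marker sums in F2 females, upper cortical layers alone did not overlap, at 469 to 646 CPM in sGC animals and 665 to 843 CPM in controls, with 0 of 6 markers called and a median fold change of -0.83. The summed oligodendrocyte markers were at 4722 to 11191 CPM in sGC animals and 3164 to 4911 CPM in controls. The part of either in the values of the vessel genes was not tested.

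In F3 females, 0 of the 35 members were called, where 1.34% of all 11420 genes were. At an unadjusted p under 0.05, 5 members were lower and 0 higher, where 8.07% and 9.2% of all genes were. The likelihood ratio test called 3 members, ACTA2, NOTCH3 and SOX17, and DESeq2 called 1, NOTCH3. These tests called 616 and 632 of all genes. Fold changes were below 0 for 30 of the 35 members, against 51.8% of all genes, with a median of -0.15, and the number below 0 was 28 to 30 with other scalings.

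The 3 members with the smallest p in F3 females belonged to mural cells and arterial endothelium. ACTA2 was at 7.66, 8.32, 8.67 and 7.88 CPM in controls and 6.03, 6.53, 6.09 and 5.92 CPM in sGC animals (-0.40, SE 0.09, FDR = 0.0696). SOX17, a transcription factor of arterial endothelium, was at 3.22, 3.46, 3.34 and 3.56 CPM in controls and 2.40, 2.49, 1.87 and 2.05 CPM in sGC animals (-0.61, SE 0.14, FDR = 0.0696). NOTCH3, the Notch receptor of mural cells, was at 33.0, 41.1, 34.5 and 40.2 CPM in controls and 30.04, 30.8, 26.9 and 26.2 CPM in sGC animals (-0.38, SE 0.09, FDR = 0.0713). All 4 sGC animals lay below all 4 controls for these 3 genes, as they did for 4.35% of all genes. Not all mural members were lower, as 2 of the 7 were above 0. TAGLN was highest of these, at 0.40, with sGC animal 1 at 44.1 CPM. The other sGC animals were at 17.8 to 24.2 CPM and the controls at 17.0 to 24.5 CPM.

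Endothelial members followed with overlapping groups in F3 females. ROBO4 was at 17.6, 19.4, 19.1 and 19.9 CPM in controls and 13.9, 16.4, 15.5 and 18.0 CPM in sGC animals (-0.25, SE 0.09, FDR = 0.183). CDH5 was at 22.1, 26.5, 24.9 and 26.8 CPM against 18.4, 23.7, 19.8 and 23.4 CPM (-0.23, SE 0.10, FDR = 0.278). The transcription factor ERG was at 7.197, 9.45, 8.73 and 9.41 CPM against 6.03, 7.75, 6.51 and 8.05 CPM (-0.29, SE 0.13, FDR = 0.298). In each of these genes 1 or more sGC animals fell within the control range. CLDN5 was at 75.7, 109.9, 91.8 and 104 CPM in controls and 82.6, 85.6, 76.6 and 81.0 CPM in sGC animals (-0.22, SE 0.10, FDR = 0.308). PECAM1 was at 23.4, 35.3, 28.5 and 34.2 CPM against 21.8, 27.8, 25.3 and 29.4 CPM (-0.22, SE 0.14, FDR = 0.467). For CLDN5 and PECAM1 the first control was well under the other controls and near the sGC animals. Without it, CLDN5 and NOTCH3 were called, while calls over all genes rose as well, to 598 from 153.

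The pericyte genes of F3 females overlapped. PDGFRB was at 40.7, 53.9, 41.9 and 54.1 CPM in controls and 42.3, 42.9, 39.4 and 40.9 CPM in sGC animals (-0.20, SE 0.10, FDR = 0.346). RGS5 was at 111, 133, 137 and 133 CPM against 99.1, 116, 118 and 149 CPM (-0.09, SE 0.12, FDR = 0.736). The neuronal markers, 3 of 7 up-regulated, were again higher without overlap in F3 sGC females, at 9474 to 10130 CPM against 6236 to 7903 CPM. Their part in the values of the vessel genes was not tested.

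**Figure D3:**
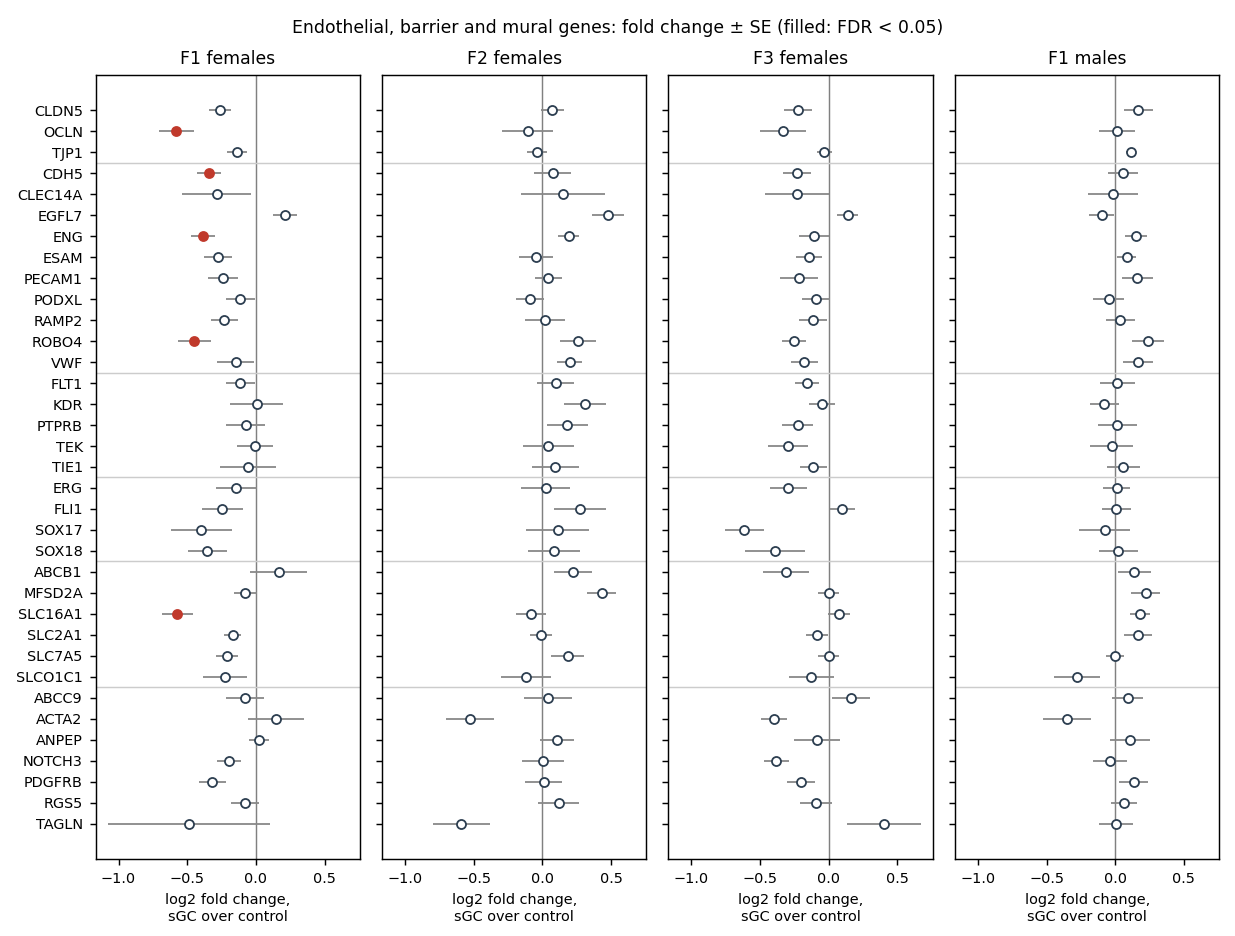
Log2 fold change (sGC over control) ± SE of the 35 members in the 4 groups of animals. Grey lines part the roles, from the top tight junction, endothelial surface, receptor, transcription factor, barrier transporter, and pericyte and mural genes, and filled red points have an FDR under 0.05. Only F1 females hold filled points, which are CDH5, ENG, OCLN, ROBO4 and SLC16A1, and most points lie left of 0 in F1 and F3 females.

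In F1 males, 0 of the 35 members were called, where 9.22% of all 11524 genes were. At an unadjusted p under 0.05 there were 2 members higher, TJP1 and SLC16A1, and 0 lower, where 12.5% and 12.6% of all genes were. DESeq2 called 1 member, TJP1, and the 9.22% of all genes belongs to the main test, not to DESeq2. TJP1 was at 141, 152, 152, 154 and 152 CPM in the 5 controls and at 157 to 174 CPM in the 6 sGC animals, with a median of 161 CPM (0.12, SE 0.04, FDR = 0.0690). Every sGC male lay above every control for TJP1, and it was the only member of which this was so, against 4.22% of all genes. SLC16A1 was at 17.7, 22.6, 22.1, 22.2 and 19.0 CPM in controls and 21.5 to 25.8 CPM in sGC animals, with a median of 23.3 CPM (0.18, SE 0.07, FDR = 0.134). These groups overlapped.

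Of the other members with small p in F1 males, MFSD2A was at 28.4, 38.0, 27.7, 35.8 and 35.9 CPM in controls and 33.9 to 47.9 CPM in sGC animals, with a median of 38.5 CPM (0.22, SE 0.10, FDR = 0.204). ROBO4 was at 13.8, 18.7, 16.6, 21.1 and 20.8 CPM in controls and 18.7 to 26.2 CPM in sGC animals, with a median of 20.99 CPM (0.24, SE 0.12, FDR = 0.235). ENG was at 30.8, 37.5, 36.0, 38.3 and 41.9 CPM against 36.5 to 46.0 CPM, median 40.9 CPM (0.15, SE 0.08, FDR = 0.271). All 3 of these genes overlapped between the groups. ACTA2 was at 7.57, 8.50, 16.3, 12.2 and 10.8 CPM in controls and 6.43 to 10.5 CPM in sGC animals, median 8.88 CPM (-0.35, SE 0.18, FDR = 0.240).

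The defining genes overlapped in F1 males as well. CLDN5 was at 66.4, 72.2, 78.7, 83.1 and 72.5 CPM in controls and at 69.0 to 114 CPM in sGC animals, median 80.4 CPM (0.17, SE 0.11, FDR = 0.361). PECAM1 was at 24.6, 29.2, 34.9, 37.7 and 34.5 CPM against 30.1 to 45.3 CPM, median 35.4 CPM (0.16, SE 0.11, FDR = 0.424). In both genes the highest value belonged to sGC animal 6. PDGFRB was at 29.9, 34.1, 41.5, 38.9 and 35.3 CPM against 34.8 to 51.9 CPM, median 37.5 CPM (0.14, SE 0.11, FDR = 0.469). RGS5 was at 118, 130.2, 130.3, 150.1 and 125 CPM against 114 to 172 CPM, median 135 CPM (0.06, SE 0.09, FDR = 0.734).

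Fold changes were above 0 for 25 of the 35 members in F1 males, against 50% of all genes, with a median of 0.04. That count rested on single animals. Animal 6 of the sGC males held the highest level for 26 of 33 members, and control 1 the lowest for 13. Without sGC animal 6, 15 members were above 0 and 20 below, and 1 was called, the thyroid hormone transporter SLCO1C1, which was lower. Over all genes, 1613 were called without that animal, against 1062 with every animal. SLCO1C1, given here after its values were seen, was at 26.0, 28.7, 31.3, 32.8 and 26.9 CPM in controls and 14.2 to 36.5 CPM in sGC animals, with a median of 23.2 CPM. All sGC males but animal 6 lay below all controls (-0.28, SE 0.17, FDR = 0.337 with every animal, and -0.44, SE 0.13, FDR = 0.0400 without animal 6). The oligodendrocyte markers, 6 of 6 tested up-regulated, were at 7336 to 12585 CPM in sGC males and 3420 to 6542 CPM in controls, with no overlap, and their part was not tested.

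**Figure D4:**
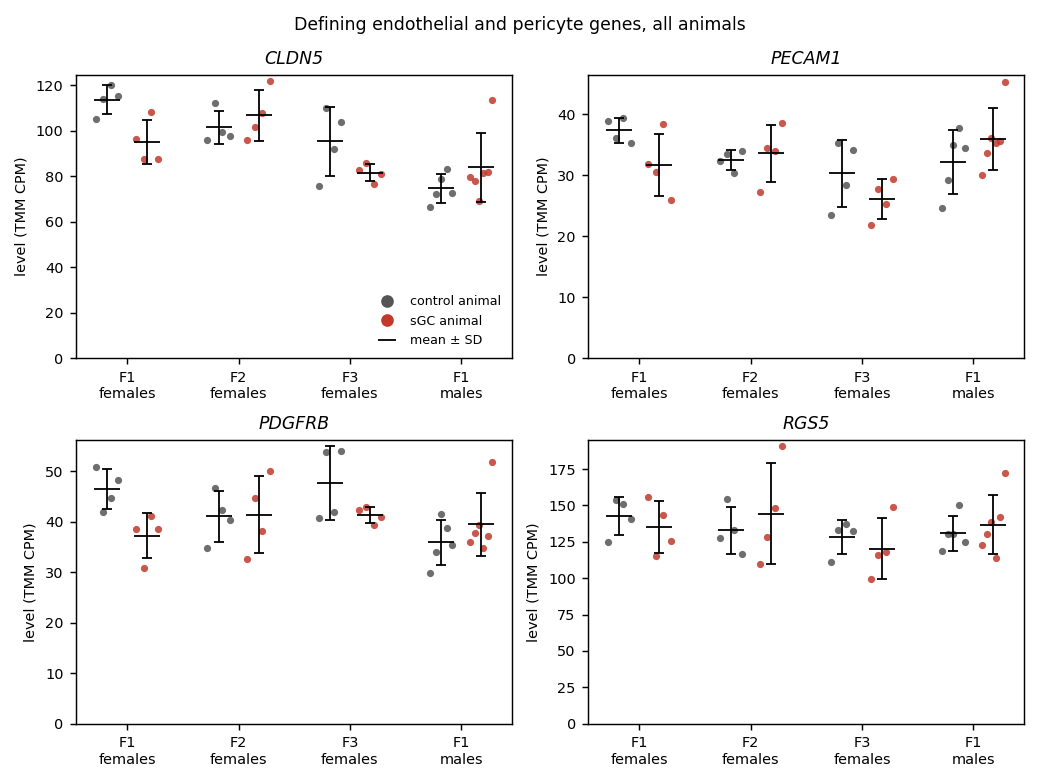
Level (TMM CPM) of the endothelial genes CLDN5 and PECAM1 and the pericyte genes PDGFRB and RGS5 in every animal. Points are animals (grey control, red sGC) and black bars are the mean ± SD. PDGFRB in F1 females is the only panel and group in which sGC and control animals do not overlap, and a single sGC animal stands highest in F2 females and in F1 males for all 4 genes.

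Whether the response to sGC differed between groups was tested as the difference of their log2 fold changes, each group keeping its own controls. The 3 pairs below all use the same F1 females and are not independent. Between F1 females and F1 males, 31.7% of all 11274 genes differed, and 16% both differed and were more positive in males. Of the 35 members, 8 differed (22.9%), and all 8 were more positive in males. They were SLC16A1 (difference 0.74, SE 0.13, FDR = 0.000442), ENG (0.53, SE 0.13, FDR = 0.00452), ROBO4 (0.68, SE 0.18, FDR = 0.00941), TJP1 (0.24, SE 0.07, FDR = 0.0181), OCLN (0.59, SE 0.20, FDR = 0.0301), ESAM (0.35, SE 0.12, FDR = 0.0367), CLDN5 (0.42, SE 0.15, FDR = 0.0407) and PDGFRB (0.45, SE 0.16, FDR = 0.0412). ESAM carries the limit on its level given above, and 7 members differed without it. All 3 tight junction genes are in this list and none of the receptors or transcription factors. SLC16A1, ENG, ROBO4 and TJP1 differed under the omission of any 1 of the 19 animals, PDGFRB under 9 of 19 and CLDN5 under 10 of 19. The number was 4 without sGC female 2, and 5 without control female 3, sGC female 4, or control male 1, 2 or 5. Markers of other cell types differed too. More positive in males were 6 of 6 tested for oligodendrocytes (median 1.71), 5 of 6 for microglia, 4 of 6 for astrocytes and 4 of 5 for striatal neurons. Of 7 neuronal markers, 5 were less positive. The part of these cell types was not tested.

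Between F1 and F2 females, 3 of 35 members differed (8.57%), where 13.8% of all 11166 genes did. The 3 were ENG (0.57, SE 0.12, FDR = 0.00951), ROBO4 (0.70, SE 0.19, FDR = 0.0259) and MFSD2A (0.50, SE 0.14, FDR = 0.0291). All 3 were more positive in F2, where 6.75% of all genes both differed at this FDR and were more positive. ENG differed under the omission of any 1 of the 16 animals, ROBO4 under 13 and MFSD2A under 9, and the number fell to 1, ENG, without F1 control 2 or without F2 sGC animal 4. Fold changes were more positive in F2 than in F1 females for 33 of the 35 members, against 52.6% of all genes. That number was 27 without F2 sGC animal 4, 28 without F1 control 1, and as high as 34 in other omissions. Oligodendrocyte markers differed as well, 6 of 6 tested being more positive in F2 (median 1.83), while 2 of 7 neuronal markers were less positive. The part of either was not tested. Between F1 and F3 females, 0 members differed, where 0.0981% of all 11212 genes did. The likelihood ratio test called 1, SLC16A1 (0.63, SE 0.14, FDR = 0.0994 in the quasi-likelihood test), and 2 members had an unadjusted p under 0.05, where 15.8% of all genes had. Of the 5 members called in F1 females, the log2 fold changes in F3 females were 0.07 (SLC16A1), -0.33 (OCLN), -0.11 (ENG), -0.23 (CDH5) and -0.25 (ROBO4).

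Summed over the 27 endothelial members without ESAM, sGC F1 females were at 1393, 1199, 1438 and 1245 CPM and controls at 1550, 1527, 1467 and 1361 CPM, a difference of -10.7% with overlap. In F2 females the sGC animals were at 1349, 1515, 1449 and 1802 CPM and the controls at 1355, 1540, 1496 and 1342 CPM, a difference of 6.66%. In F3 females they were at 1183, 1305, 1249 and 1342 CPM and 1211, 1477, 1333 and 1453 CPM, a difference of -7.25%. The groups overlapped in each generation. In F1 males the sGC animals were at 1269 to 1696 CPM, median 1312 CPM, and the controls at 1145, 1235, 1397, 1441 and 1323 CPM, a difference of 5.34%. With ESAM counted, the differences were -10.8%, 2.72%, -7.27% and 5.65% in the same order.

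Summed over the 6 mural members without ANPEP, F1 sGC females were at 262, 211, 250.5 and 250.7 CPM and controls at 287, 266, 265 and 267 CPM. This was the only one of these sums in which the groups did not overlap, with a difference of -10.3%. The gap was narrow, from 261.5 CPM in the highest sGC animal to 264.7 CPM in the lowest control. RGS5, at 115 to 156 CPM in these animals, was the largest part of the sum and overlapped on its own. TAGLN added 44.2 CPM in control 1. The differences were 0.80% in F2 females, -6.90% in F3 females and 2.90% in F1 males, all with overlap. With ANPEP counted, the difference in F1 females was -8.12% and the groups overlapped, the highest sGC animal at 320.1 CPM and the lowest control at 319.9 CPM. Single animals stood low or high over many members at once. In F1 females, sGC animal 2 held the lowest level for 21 of 33 members, and controls 1 and 2 the highest for 13 and 10. In F3 females, control 2 held the highest for 16 and sGC animal 1 the lowest for 14.

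**Figure D5:**
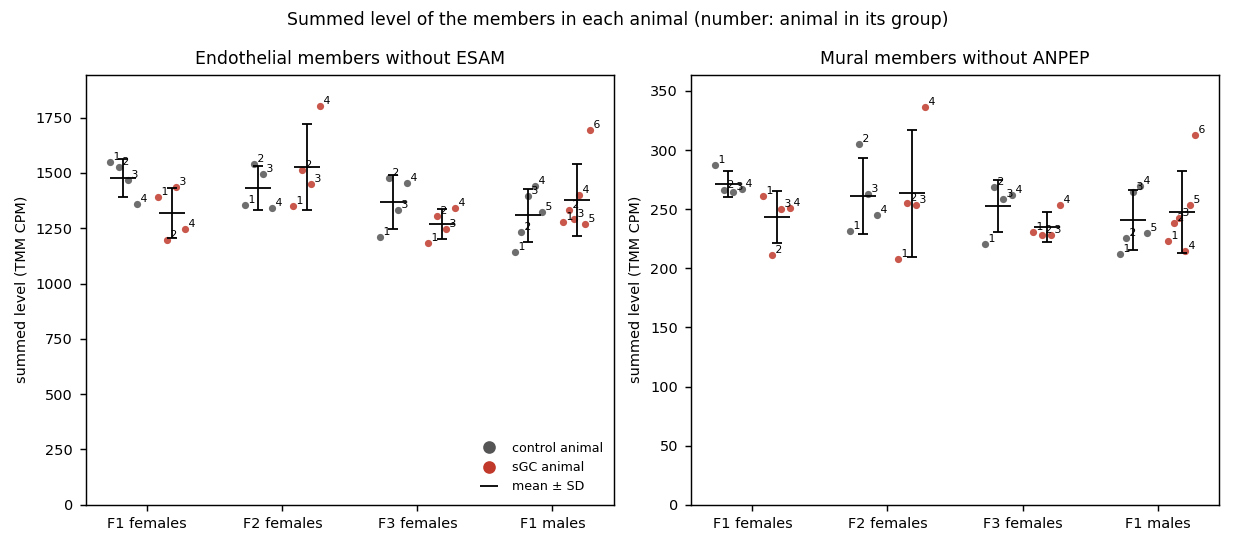
Summed level (TMM CPM) of the endothelial members without ESAM (left) and the mural members without ANPEP (right) in each animal, numbered within its group. Grey points are controls, red points sGC animals, and black bars the mean ± SD. Animal 4 of the F2 sGC females (1802 CPM) and animal 6 of the F1 sGC males (1696 CPM) stand highest on the left, and the mural sums of F1 females do not overlap.

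The wider pathway was read from 79 further genes in 4 lists, of angiogenic ligands and partners, other endothelial genes, the barrier Wnt pathway, and other pericyte and mural genes. In F1 females, 61 were tested, 8 were down-regulated and 0 up-regulated, where 7.33% and 9.21% of all genes were, with a median of -0.17 against -0.03 over all genes. ANGPT2, the angiopoietin that opposes TEK signalling, was at 7.88 to 13.97 CPM in controls and 4.88 to 6.06 CPM in sGC animals (-0.96, SE 0.18, FDR = 0.0131). S1PR1, a sphingosine phosphate receptor that steadies endothelial junctions, was at 128 to 142 CPM against 88.8 to 113 CPM (-0.52, SE 0.08, FDR = 0.00744). Neither gene overlapped between the groups. LRP5, a Wnt co-receptor, was at 23.3 to 30.0 CPM against 16.6 to 18.9 CPM (-0.58, SE 0.09, FDR = 0.00590), and the second sphingosine phosphate receptor S1PR3 was at 18.9 to 20.6 CPM against 12.4 to 15.3 CPM (-0.55, SE 0.08, FDR = 0.00592). Also down-regulated were the pericyte gene NDUFA4L2 (-0.54, SE 0.12, FDR = 0.0216), the ENG partner ACVRL1 (-0.38, SE 0.09, FDR = 0.0294), the angulin of tricellular junctions LSR (-0.38, SE 0.10, FDR = 0.0309) and the endothelial nitric oxide synthase NOS3 (-0.38, SE 0.10, FDR = 0.0311).

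In F2 females, 0 of 61 of these genes were called, where 0.278% of all genes were. In F3 females 1 of 60 was, where 1.34% of all genes were, namely NRP1, a co-receptor of vascular endothelial growth factor, at 31.3 to 39.8 CPM in controls and 43.7 to 53.0 CPM in sGC animals (0.51, SE 0.09, FDR = 0.0377). In F1 males 5 of 62 were up-regulated, where 5.74% of all genes were, and 0 down-regulated. These were the adhesion molecule MCAM (0.19, SE 0.04, FDR = 0.00993), the Wnt ligand WNT7A (0.41, SE 0.09, FDR = 0.0134), the ligand VEGFB (0.21, SE 0.06, FDR = 0.0357), the growth factor TGFB1 (0.49, SE 0.14, FDR = 0.0394) and SPARCL1 (0.21, SE 0.06, FDR = 0.0407), a matrix protein that astrocytes also make. In the test of the difference between F1 females and F1 males, 15 of 62 genes were called as more positive in males and 2 as less so. Of all genes, 31.7% were called and 16% were called as more positive. The 8 genes down-regulated in F1 females were among the 15, with LRP5 (0.79, SE 0.12, FDR = 0.000197) and ANGPT2 (0.84, SE 0.24, FDR = 0.0134) as examples. The 8 were picked from the same F1 females that enter this test, so their calls here are no independent support for the result in females. TGFB1 was among the 15 too (0.86, SE 0.21, FDR = 0.00447). NRP1 was less positive in males (-0.50, SE 0.18, FDR = 0.0420). Between F1 and F2 females, 5 of 61 were called as more positive in F2 and 0 as less so, where 6.75% of all genes were called as more positive.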

How the data were processed

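The authors deposited 1 table for each group, F1, F2 and F3 females and F1 males, with whole-number read counts per gene symbol and animal, not normalized. Their processing notes name TopHat2 and edgeR. The counter, genome build and annotation are not given in the sources used here, and no coordinates or sequences are reported. The tables also hold the authors' log2 fold changes, log2 CPM, likelihood ratio score, p-values and FDR of sGC against control, which were not used.

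The analysis used edgeR 4.0.16 under R 4.3.3 (filterByExpr with minimum count 10, TMM, quasi-likelihood test on the counts, Benjamini-Hochberg over all genes of a table), with sGC compared with control animals within each table, and differences between groups as interactions. Members were read from these fits. Members and lists were chosen with earlier results of these data known. Values in every animal are given for CLDN5, PECAM1, PDGFRB, RGS5 and, in each group, the 6 members with the smallest p, with the lowest, median and highest in place of single values for the 6 male sGC animals. Other pathway genes are named where the FDR was under 0.05 in a group. Replicates are separate animals and no pair agreed within counting noise (smallest chi-square per gene 2.84). The scripts were tested on simulated data. Alternatives were the likelihood ratio test, DESeq2 1.42.0, RLE and upper-quartile scaling, no filter, a CPM filter of 1, a replicate block, and omission of each animal. The tables give no gene lengths, so levels are not compared between genes.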

Additional observations from a re-analysis of the deposited data

Results flagged for a closer look

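Among 94 groups of 4 to 6 animals, 8 held a value far from the others by Dixon's test at its 95% level, where chance gives about 1 in 20. Of these, 6 were in F1 males. In F1 male sGC animals CLDN5 reached 114 CPM, PDGFRB 51.9 CPM, TJP1 174 CPM and the summed endothelial members without ESAM 1696 CPM, all in animal 6, and MFSD2A reached 47.9 CPM in animal 4. In F1 male controls TJP1 lay lowest, at 141 CPM, in animal 1. The summed mural members without ANPEP reached 287 CPM in control 1 of the F1 females and 253.5 CPM in sGC animal 4 of the F3 females.

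The response to sGC differed between F1 females and F1 males for SLC16A1 (0.74), ROBO4 (0.68), OCLN (0.59), ENG (0.53), PDGFRB (0.45), CLDN5 (0.42), ESAM (0.35) and TJP1 (0.24), each as the log2 fold change in males minus that in females with an FDR under 0.05. It differed between F1 and F2 females for ROBO4 (0.70), ENG (0.57) and MFSD2A (0.50), as F2 minus F1. The value for ESAM compares groups in which its level stood at 15.7 to 19.1 CPM and at 1106 to 1173 CPM on average.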

How the results depend on the processing

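With the replicate block, genes called numbered 1080 in F1, 53 in F2 and 67 in F3 females, against 1864, 31 and 153 without it, and members called 2 in F1 females (ENG and SLC16A1) and 1 in F1 males (SLCO1C1). The deviations of animals that shared a number had correlations of -0.334 to 0.357. With so few animals, taken about their own group mean, these values cannot decide whether the numbers pair the animals. The likelihood ratio test called 534 genes and 2 members in F2 females, 616 and 3 in F3 females, and 1 member between F1 and F3 females. In F1 females the likelihood ratio test called 6 members, and DESeq2 and upper-quartile scaling 7 each. DESeq2 called 473 and 2 in F2 females, 632 and 1 in F3 females, and 1 member in F1 males. In F2 females, upper-quartile scaling called 70 genes and no filter 76. Omitting 1 animal gave 613 to 2115 genes and 1 to 7 members in F1 females, 0 to 487 and 0 to 2 in F2 females, 20 to 598 and 0 to 2 in F3 females, and 667 to 1613 and 0 to 1 in F1 males. Members that differed between groups numbered 4 to 9 for F1 females and males, 1 to 4 for F1 and F2 females and 0 to 1 for F1 and F3 females. Signs turned for RGS5 in F1 males (-0.0131 with the block, and -0.0136 to 0.117 over the omissions, lowest without sGC 6). In F2 females they turned over the omissions for PECAM1 (-0.0316 to 0.129) and RGS5 (-0.0467 to 0.225) without sGC 4, and for PDGFRB (-0.0988 to 0.105) without control 1 (-0.0685), control 4 (-0.00199), sGC 2 (-0.0346) or sGC 4. The cause was not tested. Without the 2 controls richest in striatal markers, 1707 genes were called in F1 females, and ROBO4 was no longer called (-0.51). No scaling moved the median of all genes by 0.1 or more.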
